A study of Rattus norvegicus with 4 samples.

Results

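Expression of 10 antioxidant defence genes was followed in cultured rat aortic smooth muscle cells given an inflammatory cytokine or a growth factor. The genes were Nqo1, Hmox1, Gclc, Gclm, Txnrd1, Srxn1, Mgst1, Sod2, Sod3 and Mt2A. They were chosen by name with earlier results of these data known, so their counts beside shares of all genes are a description. All probe sets annotated to exactly 1 of these symbols were taken, which gave 14 of the 31099 probe sets on the array and 10 of 14218 named genes. Gclc and Txnrd1 had 2 probe sets each, Srxn1 had 3 and every other gene had 1.

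The cells came from Sprague-Dawley rats, were cultured with serum until confluent over 3 days and without serum for a further 3 days, before a 24 h exposure. IL-1b (interleukin-1b), a cytokine of inflammation, was given at 2.5 ng/mL in a vehicle of 0.1% bovine serum albumin (BSA) with 10 mM acetic acid. PDGF-DD is a growth factor of the platelet-derived family whose main receptor is PDGF receptor beta, and 30 ng/mL of it were given in 0.01% BSA. Both factors and both vehicles were hybridised, and each of these 4 groups was a single Affymetrix array, how many animals or cultures stood behind an array is not given in the sources used here, and the labels name no genetic alteration. Every difference below is therefore between single arrays, with no replicate check, test, p-value or error, and precision is limited by the number of arrays.

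NRF2, encoded by Nfe2l2, is a transcription factor that KEAP1 holds in the cytoplasm and marks for degradation. Oxidants and electrophiles modify KEAP1, and NRF2 then enters the nucleus, pairs with small MAF proteins and binds antioxidant response elements of genes for glutathione synthesis, thiol reduction and quinone or heme breakdown. Superoxide dismutases and metallothioneins belong to the same defence but are also controlled by other factors, among them NF-kappaB and cytokines for Sod2 and the zinc sensor MTF1 for metallothioneins. In the arterial wall these enzymes limit superoxide and lipid peroxides.

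Intensities are on a linear scale after the arrays were set to a common trimmed mean, and values under a floor of 28.1 were set to that floor before ratios were taken. A gene was counted as higher or lower when it was at least 2-fold apart, which is a rule of size and not a test. Intensities of different probe sets are not comparable with each other, so levels are compared between arrays only. With bulk RNA, more cells of a kind and more RNA per cell cannot be told apart.

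On the 4 arrays 58.3% to 61.5% of probe sets were above the floor. Of 8 smooth muscle markers, 8 were above it on the IL-1b vehicle array and 7 on each other array, and their summed intensity was 28035 on the IL-1b vehicle, 8614 on the IL-1b, 20186 on the PDGF-DD vehicle and 4701 on the PDGF-DD array. Of 8 leukocyte and macrophage markers, Ptprc, Cd68, Csf1r, Itgam and Cd163 were at the floor on all 4 arrays, while the lysozyme gene Lyz2 reached 1305 on the IL-1b array alone, so that their summed intensity ranged from 1168 to 1274 on the other 3 arrays and was 2730 there. Between 0 and 1 of 6 endothelial markers and between 2 and 4 of 5 epithelial and mesothelial markers were above the floor on an array. All summed intensities were taken before low values were set to the floor. They ranged from 37.8 to 62.6 for the endothelial markers, with Pecam1, Kdr, Vwf, Tie1 and Cldn5 under the floor throughout. For the epithelial and mesothelial ones they ranged from 198 to 366, with Cdh1 under the floor throughout. The beta-actin 3'/5' ratio, a sign of RNA quality, ranged from 1.26 to 2.05, highest on the IL-1b array. The spike-in BioC read 452 to 606 on the IL-1b pair of arrays and 153 to 199 on the PDGF-DD pair. What these differences contribute to the values below was not tested.

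With IL-1b, 6 of the 10 genes were at least 2-fold higher than with its vehicle (Mgst1, Sod2, Mt2A, Nqo1, Sod3 and Srxn1) and 0 were lower. Over all 10679 genes above the floor on either array, 6.15% were at least 2-fold higher and 5.42% lower. The median log2 ratio was 1.11 for the 10 genes and 0.02 for all genes. The vehicle arrays themselves differed in 4 of these 6 genes: Sod2, Nqo1, Sod3 and Mt2A exceeded the IL-1b vehicle by 2-fold or more in cells given the vehicle of PDGF-DD, while Mgst1 (1.19-fold) and Srxn1 (1.65-fold) did not. That is 4 of 10 against 5.79% of all genes, and 0 of 10 were lower against 4.67%. Set against the PDGF-DD vehicle array, the IL-1b array had 1 of 10 genes at least 2-fold higher, Mgst1, against 5.44% of all genes, and 0 lower, against 4.97%, and the median log2 ratio of the 10 genes was 0.39 against 0.07 for all genes.

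With PDGF-DD, Srxn1 and Hmox1 were at least 2-fold higher than with its vehicle, 2 of 10 against 4.24% of all genes, and Sod3 and Sod2 at least 2-fold lower, 2 of 10 against 4.67%. The median log2 ratio of the 10 genes was 0.41, and that of all 10142 genes 0.01. Against the IL-1b vehicle array 3 of 10 were at least 2-fold higher (Srxn1, Nqo1 and Sod2), beside 9.64% of all genes, 0 were lower, beside 10.3%, and all 10 were higher by some amount, beside 47.2%. The IL-1b vehicle array carried the lowest intensity of 7 of the 10 genes. It carried the lowest of 30.6% of the 10885 genes above the floor on an array, a share that includes genes tied at the floor with other arrays. The vehicles differ in albumin and acetic acid, and these differences cannot be told apart from any difference between cultures or arrays.

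**Figure D1:**
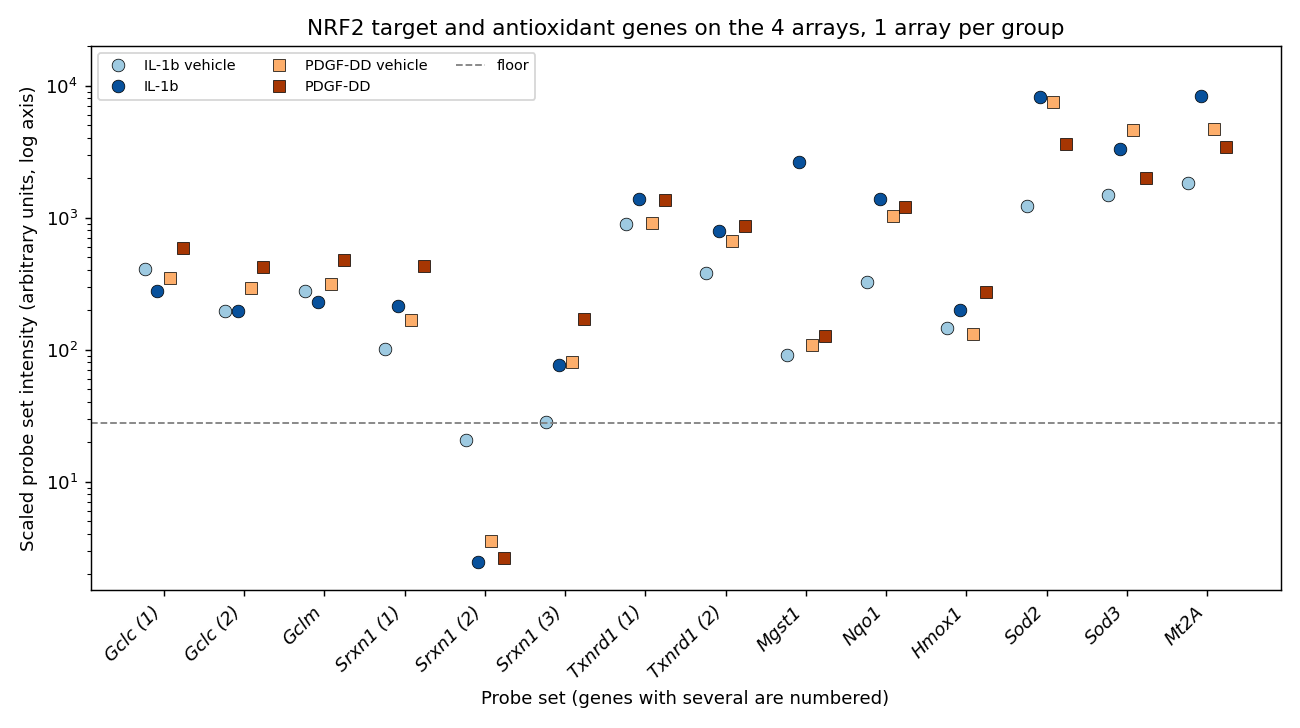
Scaled intensity (log axis) of each of the 14 probe sets on the 4 arrays, 1 point per array, with numbers for genes that have several probe sets and a dashed line at the floor of 28.1. Mgst1 stands at 2630 on the IL-1b array and between 90.8 and 128 on the others, Sod2, Sod3 and Mt2A are low on the IL-1b vehicle array, and Srxn1 (2) lies under the floor on all 4 arrays.

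Promoter sequences, from the RefSeq table of the rat assembly GRCr8, were matched for 8 of the 10 genes, as 9 windows since Txnrd1 has 2, and searched for the core of the antioxidant response element, TGANNNNGC, on both strands of 300 bases around the gene start. The core was found in Nqo1, Gclm, Txnrd1, Srxn1, Mgst1, Sod2 and Mt2A, 7 of 8 genes and 7 of 9 windows, and in 40.5% of all 33469 windows. The narrower form TGACNNNGC, which is a part of the first, was found in Gclm, Txnrd1, Sod2 and Mt2A, and in 12.1% of all windows. Srxn1 had 3 matches, at -118, -17 and -5, of which the first is shown. The stretches below show the core in capitals with its flanks, 5' to 3' on the gene's strand, for the genes the values turn on, and a core on the opposite strand reads as its reverse complement, from GC to TCA.
Gclm: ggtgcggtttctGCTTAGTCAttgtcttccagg
Txnrd1: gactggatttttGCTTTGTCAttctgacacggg
Srxn1: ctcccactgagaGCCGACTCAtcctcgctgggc
Nqo1: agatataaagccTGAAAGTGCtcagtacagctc
Sod2: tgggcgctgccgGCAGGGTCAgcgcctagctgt
These lie at chr2:213031951-213031983 on the plus strand for Gclm, chr7:22755962-22755994 on the minus strand for Txnrd1, chr3:161064682-161064714 on the plus strand for Srxn1, chr19:52220297-52220329 on the minus strand for Nqo1 and chr1:50050183-50050215 on the minus strand for Sod2. The letters are a description of these windows and do not show that a factor binds there.

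Glutathione synthesis begins with glutamate-cysteine ligase, made of the catalytic subunit GCLC and the modifier subunit GCLM, which raises the activity of the catalytic one. Gclc had intensities of 407 on the IL-1b vehicle, 280 on the IL-1b, 350 on the PDGF-DD vehicle and 586 on the PDGF-DD array. Gclm read 280, 230, 316 and 478 in the same order. Both subunits were highest on the PDGF-DD array and lowest on the IL-1b array. With PDGF-DD the log2 ratios were 0.74 for Gclc and 0.60 for Gclm, and with IL-1b -0.54 and -0.29, none of them 2-fold. The other probe set of Gclc read 198, 197, 292 and 426, with log2 ratios of 0.55 for PDGF-DD and -0.01 for IL-1b, and placed the PDGF-DD vehicle above the IL-1b vehicle (0.56) where the first placed it below (-0.22). Set directly against each other, the PDGF-DD array exceeded the IL-1b array 2.10-fold and 2.17-fold by the Gclc probe sets and 2.08-fold for Gclm.

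Reduction of oxidised thiols is served by sulfiredoxin, Srxn1, which repairs overoxidised peroxiredoxins, and by thioredoxin reductase 1, Txnrd1, which regenerates thioredoxin with NADPH. Srxn1 had intensities of 102 on the IL-1b vehicle, 214 on the IL-1b, 168 on the PDGF-DD vehicle and 433 on the PDGF-DD array. It was 2.57-fold higher with PDGF-DD and 2.11-fold higher with IL-1b than with the respective vehicle, and it was the only one of the 10 genes at least 2-fold higher with both. Against the vehicle array of the other factor, PDGF-DD gave 4.25-fold and IL-1b 1.27-fold. A further probe set of Srxn1 read 28.2, 76.5, 80.4 and 171, the first of these just above the floor, with 2.13-fold for PDGF-DD and 2.72-fold for IL-1b. The remaining one was at the floor on all 4 arrays and gave no ratio.

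Txnrd1 had intensities of 891 on the IL-1b vehicle, 1385 on the IL-1b, 907 on the PDGF-DD vehicle and 1358 on the PDGF-DD array. Both factor arrays lay above both vehicle arrays, with log2 ratios of 0.64 for IL-1b and 0.58 for PDGF-DD, under the 2-fold rule. The vehicle arrays were 1.02-fold apart, so either one gave nearly the same ratio. By its other probe set, at 381, 795, 668 and 871, IL-1b was 2.09-fold and PDGF-DD 1.30-fold above its vehicle, and the PDGF-DD vehicle was 1.76-fold above the IL-1b vehicle, so the probe sets differ in whether the vehicle arrays were alike.

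Mgst1 encodes microsomal glutathione transferase 1, a membrane enzyme that conjugates glutathione and reduces lipid peroxides. Its intensity was 90.8 on the IL-1b vehicle, 2630 on the IL-1b, 108 on the PDGF-DD vehicle and 128 on the PDGF-DD array. The IL-1b array stood apart from the other 3, which lay within 1.41-fold of each other. IL-1b was 29.0-fold above its vehicle, which ranked 26 among 10679 genes, and 24.4-fold above the PDGF-DD vehicle, which ranked 12 among 10522. PDGF-DD was 1.19-fold above its vehicle. Mgst1 is also expressed by macrophages, and 3 of 8 leukocyte and macrophage markers were above the floor on the IL-1b array, against 1 on each other array. Cd14 read 1117 to 1333 on all 4 arrays, Lyz2 was at least 46.5-fold above its vehicle with IL-1b, and Adgre1 was above the floor on the IL-1b array alone, at 41.7, while Ptprc, Cd68, Csf1r, Itgam and Cd163 were at the floor there. The part of these markers' source in the Mgst1 value was not tested. The 250 bases before its start, at chr4:172760680-172760929 on the plus strand of GRCr8, are shown with the response element core and a match to a loose NF-kappaB element, 3 G, any 5 bases and 2 C (found in 47.3% of all windows), in capitals, in that order.
Mgst1: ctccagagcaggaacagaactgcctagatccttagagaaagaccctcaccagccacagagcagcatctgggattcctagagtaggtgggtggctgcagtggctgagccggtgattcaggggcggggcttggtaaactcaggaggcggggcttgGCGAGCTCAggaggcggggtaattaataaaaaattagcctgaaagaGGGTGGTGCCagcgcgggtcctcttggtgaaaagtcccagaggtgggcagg
The core starts at position -97 and the NF-kappaB match at -51, counted back from the gene start. The loose element was found in 7 of the 8 genes. A single fixed case of it, 3 G, then A, C, 3 T and 2 C, was also searched. That case was found in 0 of the 8 genes and in 0.111% of all windows. An NF-kappaB consensus that allows a choice of bases at some positions was not searched.

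Nqo1 encodes a quinone reductase that is a widely used NRF2 target, and Hmox1 encodes heme oxygenase 1, which breaks heme down to biliverdin, iron and carbon monoxide. Nqo1 read 325 on the IL-1b vehicle, 1382 on the IL-1b, 1029 on the PDGF-DD vehicle and 1209 on the PDGF-DD array. Only the IL-1b vehicle array was low, and the other 3 lay within 1.34-fold of each other. IL-1b was 4.25-fold above its own vehicle and 1.34-fold above the other vehicle, and PDGF-DD was 1.17-fold above its own and 3.72-fold above the other. The vehicle arrays were 3.17-fold apart.

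Hmox1 read 147 on the IL-1b vehicle, 199 on the IL-1b, 132 on the PDGF-DD vehicle and 271 on the PDGF-DD array. Here the vehicle arrays were 1.11-fold apart and both factor arrays lay above both of them. PDGF-DD was 2.05-fold above its vehicle, just past the rule, and 1.85-fold above the IL-1b vehicle. IL-1b was 1.36-fold above its vehicle, and its log2 ratio to the other was 0.59. Nqo1 and Hmox1, both counted among NRF2 targets, thus had unlike patterns over the 4 arrays.

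**Figure D2:**
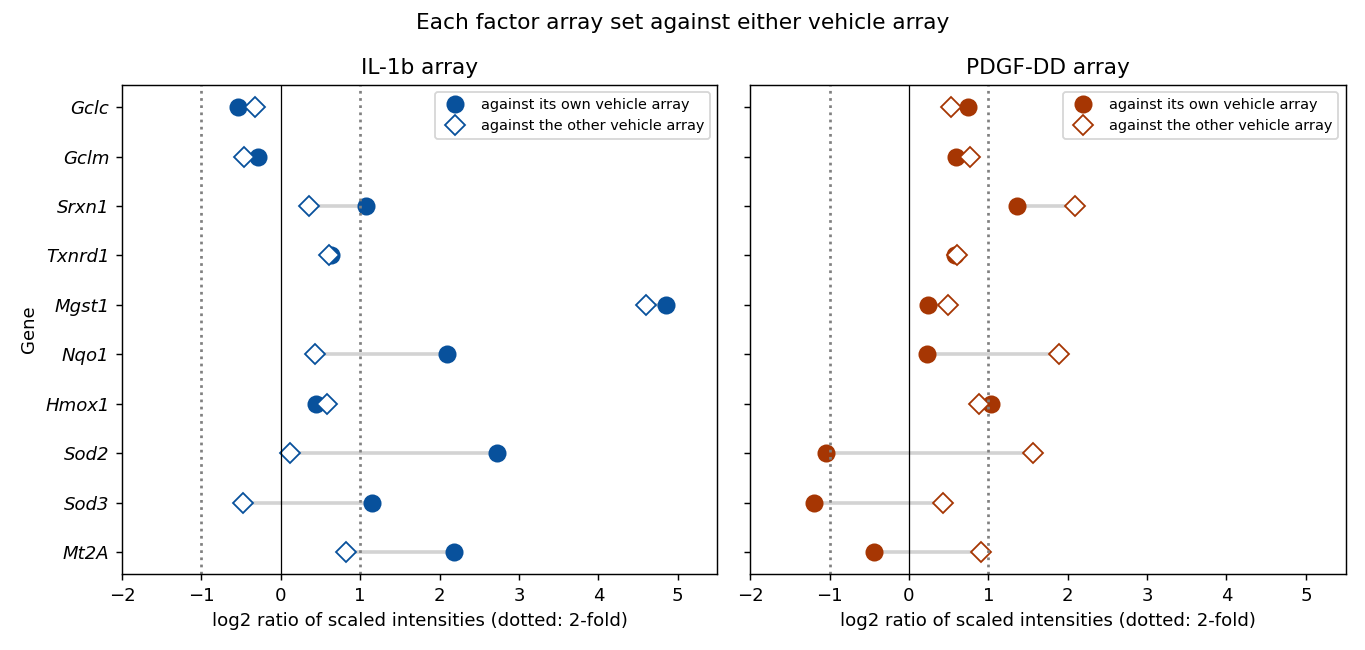
Log2 ratio of the IL-1b array (left) and the PDGF-DD array (right) to its own vehicle array (filled circles) and to the vehicle array of the other factor (open diamonds), for the probe set that stands for each gene, with dotted lines at 2-fold. The symbols lie close together for Mgst1, Gclc, Gclm, Txnrd1 and Hmox1 and far apart for Sod2, Sod3, Nqo1 and Mt2A, those of Sod2, Sod3 and Mt2A fall on opposite sides of 0 for PDGF-DD, and those of Sod3 do so for IL-1b.

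Superoxide dismutases turn superoxide into hydrogen peroxide, SOD2 in mitochondria and SOD3 outside the cell, where it binds the matrix of the arterial wall. Sod2 read 1236 on the IL-1b vehicle, 8139 on the IL-1b, 7543 on the PDGF-DD vehicle and 3643 on the PDGF-DD array. The IL-1b array and the PDGF-DD vehicle array were 1.08-fold apart, and the IL-1b vehicle array was lowest. IL-1b was thus 6.59-fold above its own vehicle, and the PDGF-DD vehicle was 6.11-fold above the IL-1b vehicle, which ranked 74 among 10389 genes. PDGF-DD was 2.07-fold below its own vehicle and 2.95-fold above the IL-1b vehicle. Without the further scaling step the log2 ratio of PDGF-DD to its vehicle was -0.96 in place of -1.05, and under quantile normalization -0.95, both short of 2-fold.

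Sod3 read 1494 on the IL-1b vehicle, 3305 on the IL-1b, 4603 on the PDGF-DD vehicle and 2004 on the PDGF-DD array, highest with the PDGF-DD vehicle. IL-1b was 2.21-fold above its own vehicle and 1.39-fold below the other. PDGF-DD was 2.30-fold below its own vehicle and 1.34-fold above the other. The direction of Sod3 therefore turned with the choice of vehicle array for both factors, and that of Sod2 for PDGF-DD, as did that of Mt2A, described next. Sod1, the cytoplasmic dismutase, was named after its values were seen, and its 4 intensities, 4307, 4269, 3780 and 3778, lay within 1.14-fold of each other.

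Metallothioneins are small cysteine-rich proteins that bind zinc and copper and scavenge oxidants. Mt2A read 1834 on the IL-1b vehicle, 8287 on the IL-1b, 4680 on the PDGF-DD vehicle and 3450 on the PDGF-DD array. It was highest with IL-1b, at 4.52-fold above its own vehicle and 1.77-fold above the other. PDGF-DD was 1.36-fold below its own vehicle and 1.88-fold above the other, and the vehicle arrays were 2.55-fold apart. Mt1, a close relative, read 33.3, 71.0, 23.2 and 50.7, of which the third is under the floor, with 2.13-fold for IL-1b and at least 1.81-fold for PDGF-DD. Whether the probe set of either takes up transcripts of the other was not tested. Metal response elements, the binding sites of MTF1, are shown because they define this promoter class: the 250 bases before the start of Mt2A, at chr19:10838709-10838958 on the minus strand, have the cores TGCACNC and TGCGCNC, or their reverse complements, in capitals.
Mt2A: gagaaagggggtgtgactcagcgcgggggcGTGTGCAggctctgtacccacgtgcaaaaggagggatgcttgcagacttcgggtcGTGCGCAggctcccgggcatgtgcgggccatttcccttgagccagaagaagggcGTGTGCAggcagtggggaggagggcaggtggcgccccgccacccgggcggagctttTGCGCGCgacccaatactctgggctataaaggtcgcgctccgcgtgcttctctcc
Mt2A was the only one of the 8 genes with both cores, which were found in 12.2% and 14.1% of all windows, and its response element core, tgactcagc, starts at position -237.

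The factor arrays were also compared with each other. Mgst1 (20.6-fold), Mt2A (2.40-fold) and Sod2 (2.23-fold) were higher with IL-1b, 3 of 10 against 8.68% of all genes. Gclc (2.10-fold), Gclm (2.08-fold) and Srxn1 (2.02-fold) were higher with PDGF-DD, 3 of 10 against 7.09%. This comparison uses no vehicle array, and it too holds any difference between the cultures.

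**Figure D3:**
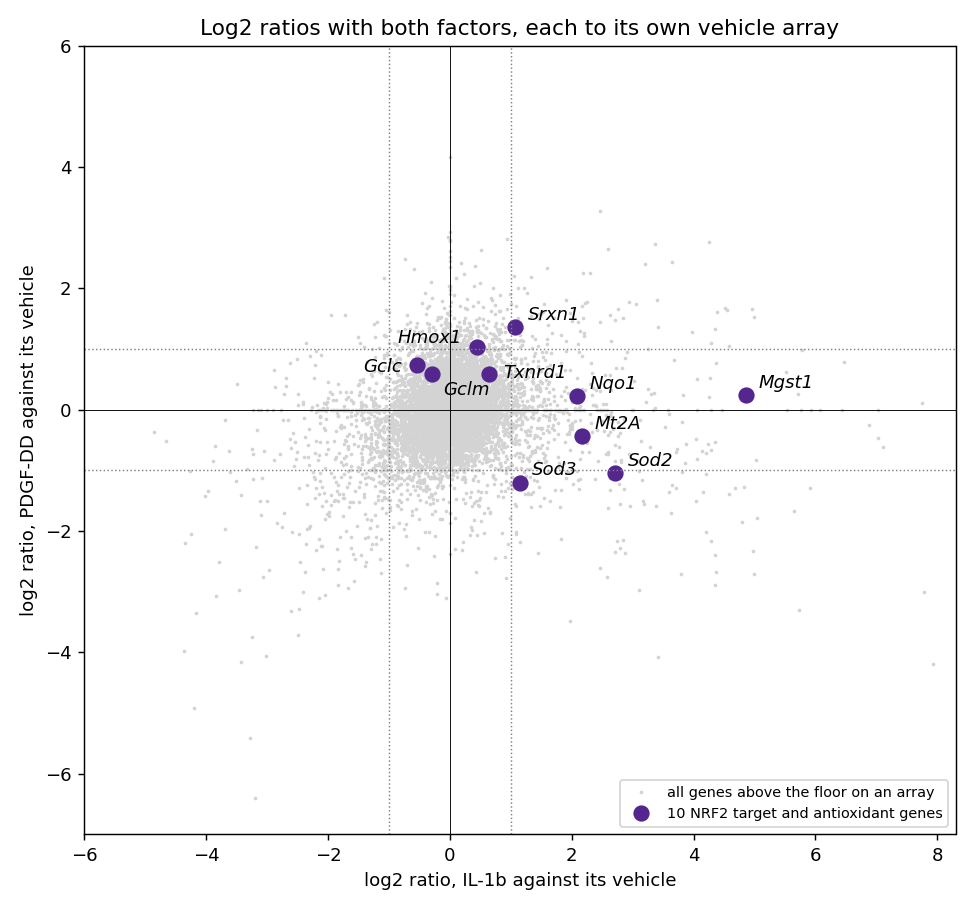
Log2 ratio of IL-1b (horizontal) and PDGF-DD (vertical) to their own vehicle arrays for the 10 genes, labelled, over all genes above the floor on an array (grey), with dotted lines at 2-fold. Srxn1 is past 2-fold in the same direction with both factors, Sod2 and Sod3 in opposite directions, and Mgst1 lies far right at 4.86 and near 0.25 on the vertical axis.

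Among regulators of the pathway, Nfe2l2 itself read 1854 on the IL-1b vehicle, 3338 on the IL-1b, 2267 on the PDGF-DD vehicle and 2384 on the PDGF-DD array. It was highest with IL-1b, at 1.80-fold above its vehicle and 1.47-fold above the other, and 1.05-fold above its vehicle with PDGF-DD. Of 9 regulators, Bach1, a repressor of Hmox1, was at the floor on all arrays. Of the other 8, 1 passed 2-fold upward with IL-1b, where 6.15% of all genes did, and 0 with PDGF-DD, where 4.24% did. Against the other vehicle Maff passed it upward with both factors, beside 5.44% of all genes with IL-1b and 9.64% with PDGF-DD. Mafk passed it downward with PDGF-DD against the other vehicle, beside 10.3%. The gene past 2-fold with IL-1b was Maff, a small MAF protein, at 44.3, 451, 122 and 147, which was 10.2-fold above its own vehicle and 3.71-fold above the other. Mafg, another small MAF, was 1.81-fold higher with IL-1b and Mafk 1.22-fold lower. With PDGF-DD, Mafk had a log2 ratio of -0.57 and Mafg of 0.22. Keap1 and Cul3, which together mark NRF2 for degradation, had log2 ratios of -0.11 and 0.11 with IL-1b and 0.19 and 0.14 with PDGF-DD. The related factor Nfe2l1 had -0.30 and -0.29, and the autophagy receptor Sqstm1, which binds KEAP1, 0.24 and -0.34. Further probe sets of Sqstm1 gave 0.95 and -0.08, and 0.06 and 0.31, in the same order of factors. Those of Nfe2l1 gave 0.19 and 0.06, and -0.14 and -0.10, and that of Keap1 gave 0.10 and -0.04. The direction thus differed between probe sets with both factors for Nfe2l1 and Keap1, but for Sqstm1 only with PDGF-DD.

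The related gene lists too were chosen with earlier results of these data known. Their counts are read beside the shares of all genes past 2-fold, which were 6.15% upward and 5.42% downward with IL-1b and 4.24% and 4.67% with PDGF-DD. Against the vehicle of the other factor these shares were 5.44% and 4.97% with IL-1b and 9.64% and 10.3% with PDGF-DD. Of 27 genes of glutathione synthesis and use, 3 were past 2-fold upward and 3 downward with IL-1b (median 0.09), and 2 and 1 with PDGF-DD (median 0.16). Against the other vehicle the counts were 4 and 0 with IL-1b and 5 and 5 with PDGF-DD. Slc7a11, the cystine importer that feeds glutathione synthesis, read 31.3 on the IL-1b vehicle, 322 on the IL-1b, 44.0 on the PDGF-DD vehicle and 291 on the PDGF-DD array. It was high on both factor arrays and low on both vehicle arrays, 10.3-fold with IL-1b and 6.63-fold with PDGF-DD. Gss, glutathione synthetase, was 2.46-fold higher with IL-1b and the glutathione transferase Mgst2 2.74-fold, though against the other vehicle Gss was 1.26-fold higher and Mgst2 1.04-fold lower. Gsta4, which conjugates lipid aldehydes, was 4.24-fold lower with IL-1b and 1.09-fold lower against the other vehicle. Gsr, glutathione reductase, was 2.19-fold higher with PDGF-DD and 1.01-fold with IL-1b. Against the other vehicle Gsr was 3.66-fold higher with PDGF-DD but 1.66-fold lower with IL-1b. With PDGF-DD, Gstm2 was 2.33-fold lower, and Chac1, which degrades glutathione, was 1.93-fold higher.

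In the thioredoxin and peroxiredoxin list, 1 of 16 genes passed 2-fold upward with IL-1b (median 0.14) and 1 downward with PDGF-DD (median 0.11), and against the other vehicle 0 did with IL-1b, and 3 upward and 2 downward with PDGF-DD. Prdx5, a peroxiredoxin, was 2.94-fold higher with IL-1b but 1.14-fold against the other vehicle, and Msrb1, a methionine sulfoxide reductase, was 2.54-fold lower with PDGF-DD. Below 2-fold, the log2 ratios with IL-1b were 0.92 for the reductase Msra, -0.55 for Prdx4 and -0.43 for Sesn3, and those with PDGF-DD 0.91 for Sesn3, -0.76 for Sesn1 and -0.64 for Txnrd3. None of 6 superoxide dismutase and catalase partners was 2-fold apart with either factor, and their medians were 0.16 and 0.03. The copper chaperones Atox1 and Ccs, the latter serving SOD1, had log2 ratios of 0.61 each with IL-1b and 0.04 and 0.02 with PDGF-DD. Catalase, Cat, had -0.15 with PDGF-DD, and the copper transporters Slc31a1 and Atp7a had 0.18 and 0.13 with IL-1b and 0.13 and 0.43 with PDGF-DD.

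Of 15 heme and iron genes, 7 passed 2-fold upward and 1 downward with IL-1b (median 0.44), as did 1 and 2 of 14 with PDGF-DD (median -0.39). Against the other vehicle the counts were 4 and 0 with IL-1b (median 0.05) and 4 and 1 with PDGF-DD (median 0.32). Between the vehicle arrays 5 of 14 were at least 2-fold higher on that of PDGF-DD, beside 5.79% of all genes. At least 2-fold lower there was 1 of 14, beside 4.67%. Slc11a2, an iron importer, read 178, 1567, 432 and 303 in the order used above, 8.81-fold above its vehicle with IL-1b and 3.62-fold above the other. Cp, the ferroxidase ceruloplasmin, was at least 9.78-fold higher and 2.03-fold against the other vehicle. Hp, haptoglobin, was 8.63-fold higher with IL-1b and 7.84-fold lower with PDGF-DD, but 1.47-fold higher and 1.33-fold lower against the other vehicle. Lcn2, which binds siderophores, was 8.91-fold higher with IL-1b and 2.22-fold lower with PDGF-DD, but 1.04-fold and 3.87-fold higher against the other vehicle. The transferrin receptor Tfrc was 2.27-fold higher with PDGF-DD. The iron exporter Slc40a1 was 3.38-fold lower with IL-1b and 1.87-fold lower with PDGF-DD. Against the other vehicle Slc40a1 was 1.01-fold lower with IL-1b and 6.24-fold lower with PDGF-DD. Its level on the PDGF-DD vehicle array was 3.33-fold below that on the IL-1b vehicle array.

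Quinone, aldehyde and NADPH enzymes, many of them NRF2 targets, passed 2-fold upward in 6 of 20 cases and downward in 1 with IL-1b (median 0.67), and in 2 and 0 of 19 with PDGF-DD (median 0.23). Set against the other vehicle they numbered 3 and 0 with IL-1b (median 0.35) and 5 and 2 with PDGF-DD (median 0.50). Akr1b8, an aldo-keto reductase, read 62.4 on the IL-1b vehicle, 1470 on the IL-1b, 558 on the PDGF-DD vehicle and 1744 on the PDGF-DD array. It was 23.5-fold higher with IL-1b and 3.12-fold with PDGF-DD, 2.63-fold and 27.9-fold against the other vehicle, and 8.95-fold apart between the vehicles. Por, the reductase that supplies cytochrome P450 with electrons, was 2.72-fold higher with IL-1b and 1.75-fold with PDGF-DD. Against the other vehicle Por was 1.35-fold higher with IL-1b and 3.53-fold with PDGF-DD. Pir, a nuclear protein, was 2.53-fold and Ptgr1, prostaglandin reductase 1, at least 2.69-fold above the vehicle on the IL-1b array. Against the other vehicle Pir was 1.29-fold higher and Ptgr1 1.46-fold lower. Cbr3, a carbonyl reductase, was just past 2-fold with PDGF-DD, at 439 against 219 on its vehicle array, and 1.41-fold higher against the other vehicle. The transporter Abcc4 was 1.74-fold higher with PDGF-DD than with its own vehicle.

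Of metallothionein and zinc genes other than Mt2A, 2 of 6 passed 2-fold upward with IL-1b (median 0.64) and 0 of 7 were 2-fold apart with PDGF-DD (median 0.24), and against the other vehicle 2 of 7 and 0 of 6 were. With IL-1b against its own vehicle they were Mt1 and the zinc importer Slc39a6, which was 3.04-fold higher and 1.95-fold against the other vehicle. Slc39a10, a zinc importer too, was 1.84-fold higher with IL-1b and 1.998-fold with PDGF-DD, just short of the rule. The zinc exporter Slc30a1 was 1.76-fold lower with PDGF-DD, as against 1.31-fold higher with IL-1b. Against the other vehicle Slc30a1 was 1.13-fold higher with PDGF-DD and 1.52-fold lower with IL-1b, so both directions turned. The zinc sensor Mtf1 was 1.25-fold higher with PDGF-DD, and its further probe sets gave log2 ratios of 0.41 and -0.20.

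Of genes that make oxidants, 4 of 7 passed 2-fold upward with IL-1b (median 1.04) and 1 of 5 downward with PDGF-DD (median -0.54). Against the other vehicle 2 of 7 passed it upward with IL-1b (median 0.24), and 1 of 5 upward with PDGF-DD (median 0.37). Xdh, xanthine dehydrogenase, read 243 on the IL-1b vehicle, 3003 on the IL-1b, 876 on the PDGF-DD vehicle and 271 on the PDGF-DD array. It was 12.4-fold higher with IL-1b, and 3.43-fold against the other vehicle. With PDGF-DD it was 3.24-fold lower, but 1.11-fold higher against the other vehicle. Nox1, a catalytic NADPH oxidase of smooth muscle, was 1.53-fold higher with PDGF-DD and at least 5.05-fold with IL-1b, and its partners Cyba and Noxo1 were 2.06-fold and at least 2.05-fold higher with IL-1b. By the other vehicle Nox1 was 1.77-fold, Cyba 1.10-fold and Noxo1 at least 2.05-fold higher. Nox4, the other smooth muscle oxidase, was 1.61-fold lower with PDGF-DD, and Cyba 1.46-fold. With PDGF-DD against the other vehicle, Nox4 was 1.27-fold lower, but Cyba was 1.29-fold and Nox1 at least 4.35-fold higher.

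**Figure D4:**
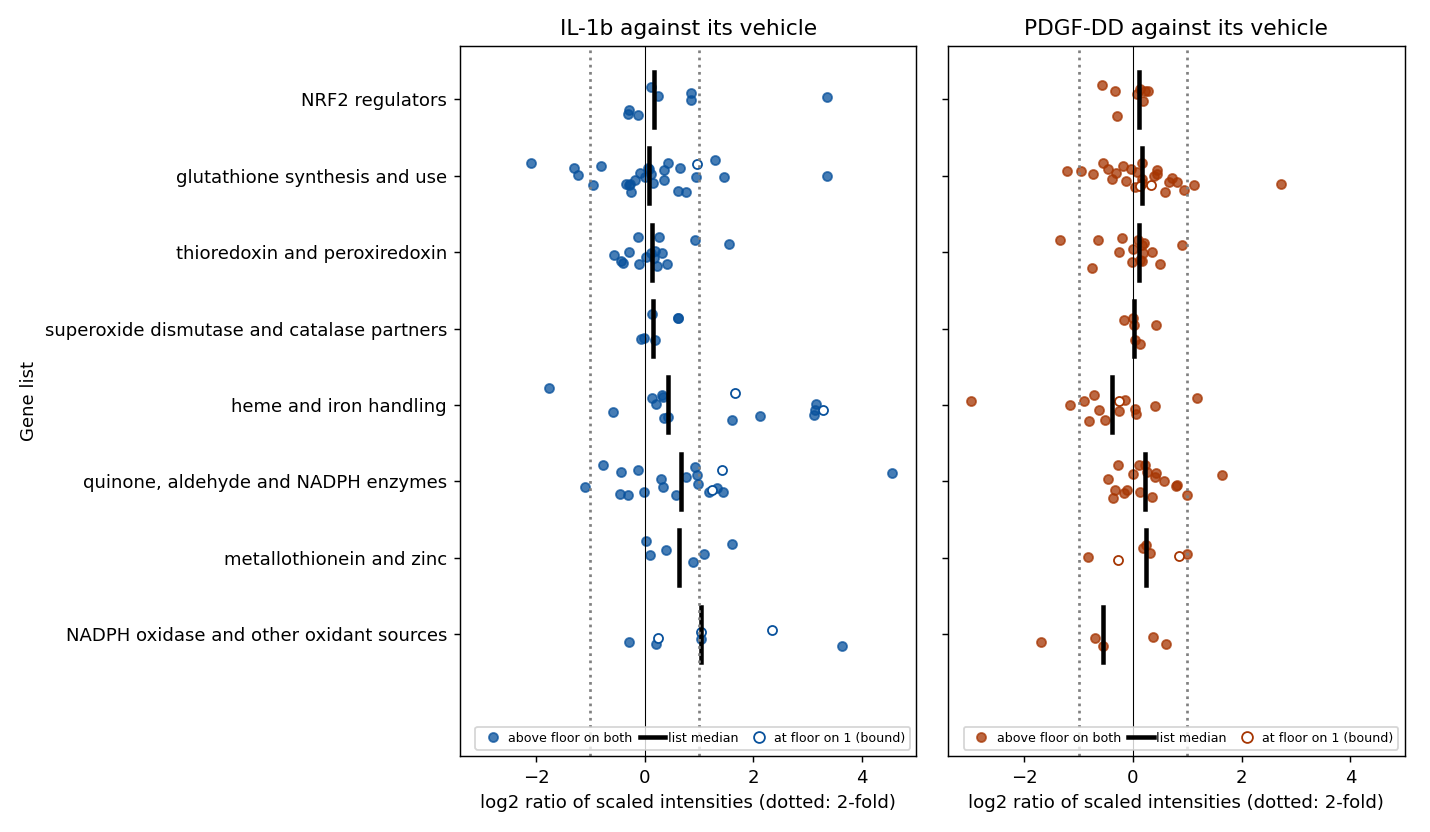
Log2 ratio of each measured gene of 8 related gene lists with IL-1b (left) and PDGF-DD (right), each to its own vehicle array, with a black bar at the list median, open symbols where 1 of the arrays was at the floor, and dotted lines at 2-fold. The medians lie between 0.09 and 1.04 with IL-1b and between -0.54 and 0.24 with PDGF-DD.

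The genes with the pattern most like each of the 10, over 4 arrays, were found by the root mean square difference of log2 intensities after each gene was centred on its own mean, among 3256 genes with a range of at least 1 on the log2 scale. For Sod2 they were Tifa (a difference of 0.09), Cebpd (0.15) and Lcn2 (0.19), which encode a signalling adaptor, a transcription factor and a siderophore-binding protein of inflammation. For Mgst1 they were Csf2 (0.19), Mmp3 (0.22) and Plet1 (0.29), each under the floor on the 3 arrays without IL-1b. Hmox1 was nearest to Zfand2a (0.03), Eme2 (0.04) and Exog (0.04), Gclm to Rab30 (0.02), Nt5c3b (0.02) and Plekhn1 (0.03), and Gclc to Macir (0.05), Gtf3a (0.08) and Ptrh2 (0.09). Srxn1 was nearest to Stambpl1 (0.07), Tmem120a (0.12) and Mtap (0.13), Txnrd1 to Ttll7 (0.14), Gnptab (0.15) and Irx3 (0.16), and Nqo1 to Wdr62 (0.11), Mcub (0.14) and Ttc9 (0.16). Sod3 was nearest to Plpp1 (0.09), Itpr2 (0.10) and Mapre2 (0.13), and Mt2A to Pdgfra (0.09), a PDGF receptor, Rnft2 (0.15) and Ank3 (0.15). Wdr62 (13.3) and Ank3 (23.3) were under the floor on the IL-1b vehicle array. Differences were taken with such values set to the floor, so the likeness of these genes depends on it. None of the nearest genes was another of the 10, though Txnrd1, with a range of 0.64, was not among the candidates. With 4 points a pattern is thinly defined, and likeness here is a description.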

How the data were processed

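Each sample was 1 array, and the authors deposited its probe set intensities on a linear scale. MAS5 is the tool that the submitters' processing notes name, and its version and scaling target are not known here. All 4 deposited columns had a median of 53.3. Arrays were scaled to a common mean after trimming 2% at each end (factors of 0.951 to 1.03), and values under the 40th percentile of all probe sets were set to it before log2 was taken. Names came from the 2016 annotation of the platform, which gives 1 symbol for 20832 probe sets, several for 436 and none for 9831. Of those with 1 symbol, 20764 matched GRCr8 RefSeq by gene identifier and 0 changed. A gene was represented by its probe set of highest mean log2 intensity, and fold sizes with 1 array at the floor are bounds. Named genes were the 10 members, all NRF2 regulators, per list and factor the 4 largest log2 ratios, and the 3 nearest patterns per member. Members and lists were chosen with earlier results of these data known, and lists hold the genes with a probe set annotated to them alone. The steps, in Python 3.11.15 with pandas 2.3.3 and numpy 2.4.6, were tested on simulated data. Alternatives were the deposited scaling, quantile normalization, floors at the 20th and 50th percentile, an offset of 16, the median over probe sets, 1.5-fold and 3-fold rules, and other vehicle arrays.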

Additional observations from a re-analysis of the deposited data

Results flagged for a closer look

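Sod2 and Sod3 were at least 2-fold apart from their own vehicle in opposite directions with the factors. For Sod2 the log2 ratio was 2.72 with IL-1b and -1.05 with PDGF-DD, a difference of 3.77. For Sod3 it was 1.15 and -1.20, a difference of 2.34. Both depend on the vehicle arrays: with the vehicle of the other factor the log2 ratios were 0.11 and 1.56 for Sod2 and -0.48 and 0.42 for Sod3, in the same order, so that each difference changed sign. Each rests on 4 single arrays, and the difference was not tested.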

How the results depend on the processing

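Each factor and vehicle comparison was recomputed under up to 10 alternatives. No paired analysis was possible because each group is 1 array. The floor settings could not move the ratios of the 10 genes, whose standing probe sets were above each floor on all arrays, and the median over probe sets could move only Gclc, Srxn1 and Txnrd1. By that median Gclc turned between the vehicles, from -0.22 to 0.17.

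With the vehicle array of the other factor, genes of the 10 higher with IL-1b numbered 1 in place of 6, those lower with PDGF-DD 0 in place of 2, and all genes apart with PDGF-DD 2076 in place of 904. Sod3 turned to -0.48 with IL-1b, and Sod2, Sod3 and Mt2A to 1.56, 0.42 and 0.91 with PDGF-DD. With the mean of both vehicles, genes of the 10 higher with IL-1b numbered 4 in place of 6, as Srxn1 (0.71) and Sod3 (0.33) fell short. Those lower with PDGF-DD numbered 0, and Sod2 and Mt2A turned to 0.26 and 0.24 with PDGF-DD. Genes of the 10 lower with PDGF-DD numbered 1 as deposited and 1 under quantile normalization, where Sod2 fell short of 2-fold, and those higher with it 1 with the offset, 4 at 1.5-fold and 0 at 3-fold, where 0 were lower. All genes apart with IL-1b, with PDGF-DD and between the vehicles numbered 2293, 1650 and 2026 with the floor at the 20th percentile, 2673, 2537 and 2729 at 1.5-fold, and 576, 259 and 441 at 3-fold, beside 1236, 904 and 1087. Srxn1 with IL-1b (0.97) and Hmox1 with PDGF-DD (0.95) fell short of 2-fold with the offset, and Srxn1 passed it between the vehicles (1.12) by the median of its probe sets. Which part of the difference between the vehicle arrays comes from their composition cannot be told apart from culture or array. Signal under the floor limits Mt1, Nox1, Noxo1, Cp and Ptgr1 to bounds.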
